A study of Mus musculus with 20 samples.

Results

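The insulin-like growth factor (IGF) system of the uterus was examined through 10 of its genes, Igf1, Igf2, Igf1r, Igf2r and Igfbp2 to Igfbp7, among 45777 genes listed per library. They were chosen by name, as ligands, receptors and binding proteins of the system, with earlier results of these data known. All 10 were above 0 TPM in every one of the 20 libraries, which was the condition for a gene to be tested and was met by 18706 genes. TPM is a transcript level scaled for transcript length and for the total of the library, so it can be set side by side between genes.

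The libraries came from the uteri of wild-type B6D2F1 female mice aged 8–12 weeks, mated and killed at 18:00 on day 3.5 of pregnancy (day 0.5 being the morning of the plug), with 5 mice in each of 4 groups and 1 uterine horn per mouse. Control mice were given no treatment. IF mice, the implantation failure model, received the progesterone receptor antagonist RU486 subcutaneously (3 mg/kg) that morning at 9:00. PBMC mice received the same RU486 after 50000 peripheral blood mononuclear cells (PBMC) from non-pregnant mice had been placed in each horn on day 1.5, following 24 h of culture, and PBMC-hCG mice received RU486 and PBMC cultured with human chorionic gonadotropin (hCG, 5 IU/mL). Both PBMC groups therefore carry RU486, the injection itself and the PBMC. Mice injected with culture medium containing hCG, without cells, are not analysed here. RU486 also blocks the glucocorticoid receptor.

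IGF1 and IGF2 are small secreted growth factors that signal through the receptor tyrosine kinase encoded by Igf1r. The product of Igf2r, the mannose 6-phosphate receptor, takes up IGF2 for degradation and sorts lysosomal enzymes. The IGF binding proteins hold the ligands outside the cell, prolong or block their action, and are themselves cut by proteases. In the rodent uterus Igf1 is known as an estrogen-responsive gene of the stroma that acts on the epithelium, and the binding proteins are known to be made by stroma, epithelium, vessels and muscle in differing mixtures.

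The members lie on 7 mouse chromosomes in the RefSeq annotation of GRCm38.p6. Igfbp2 and Igfbp5 are neighbors on chromosome 1, separated by 5590 bases, and Igfbp3 lies 3539 bases from Igfbp1 on chromosome 11. Igf2 lies 72621 bases from H19 on chromosome 7, its partner in an imprinted cluster. The windows of 250 bases before the annotated starts of Igf1 (chr10:87860861-87861110, plus strand) and Igfbp5 (chr1:72874866-72875115, minus strand) are printed below, because these 2 genes had the largest changes of all members, in opposite directions. Both are from RefSeq, 5′ to 3′ on the strand of the gene, and capitals mark matches to any of 5 motifs searched on both strands.
Igf1: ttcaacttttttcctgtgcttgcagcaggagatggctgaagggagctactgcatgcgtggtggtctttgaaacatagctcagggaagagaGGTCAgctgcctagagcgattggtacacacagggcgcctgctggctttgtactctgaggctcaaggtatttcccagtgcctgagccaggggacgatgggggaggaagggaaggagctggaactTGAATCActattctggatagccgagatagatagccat
Igfbp5: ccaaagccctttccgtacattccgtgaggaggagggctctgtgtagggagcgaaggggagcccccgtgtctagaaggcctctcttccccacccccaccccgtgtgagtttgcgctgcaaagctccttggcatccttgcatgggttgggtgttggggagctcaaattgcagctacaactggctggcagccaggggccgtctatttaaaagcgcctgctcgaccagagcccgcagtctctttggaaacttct
The Igf1 window lies within the annotated span of the gene, before one of its starts, and the Igfbp5 window directly adjoins the gene. In the Igf1 window the capitals mark GGTCA, one arm of the estrogen response element, and TGAATCA, a form of the AP-1 motif TGANTCA. The Igfbp5 window held none of the 5. Of 32851 such windows over the annotation, 35.2% held GGTCA, 6.75% held TGANTCA, 12.4% held the TATA box letters TATAAA, 5.84% held the steroid receptor core ACANNNTGT, and 0.0639% held the full estrogen response element, 2 inverted GGTCA arms 3 bases apart, which overlaps the GGTCA count. A match describes the letters and not the binding of a factor.

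Control mice carried far more transcripts of binding proteins than of either ligand. Igfbp7 was highest at 1131 ± 184 TPM (SD, n = 5), followed by Igfbp4 at 828 ± 225, Igfbp6 at 396 ± 50.5, Igfbp3 at 311 ± 204 and Igfbp5 at 176 ± 15.8 TPM. Igf1 followed at 149 ± 31.3 TPM, then Igf2r at 36.7 ± 1.65, Igf1r at 12.1 ± 3.26, Igf2 at 9.77 ± 1.67 and Igfbp2 at 2.26 ± 2.84 TPM. Neighbors in this order overlapped between mice, except Igf1 with Igf2r and Igf2r with Igf1r. By mean, Igf1 stood below Igf2r and Igfbp5 above Igfbp3 in the other 3 groups, although the ranges of both pairs overlapped in IF mice. Igfbp1, the best known decidual binding protein, was close to absent. It was at 0 TPM in 3 control, 1 IF and 2 PBMC libraries, reached at most 1.33 TPM in any mouse, and was not tested. All PBMC-hCG mice had it, at 0.689 to 1.15 TPM, against at most 0.514 TPM in control mice.

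**Figure D1:**
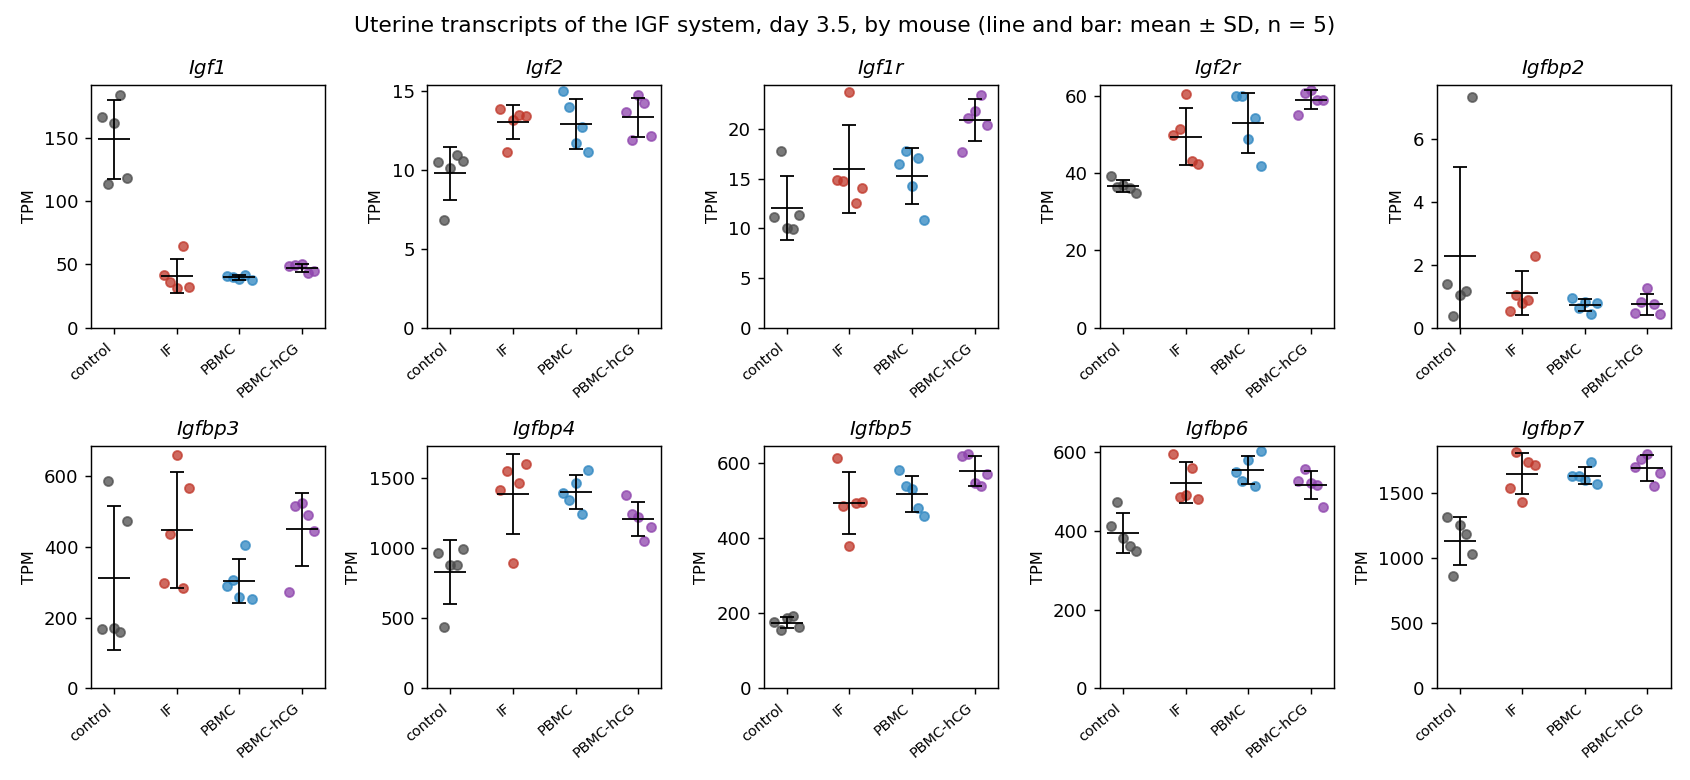
TPM of the 10 members in each mouse of the 4 groups, on linear axes that begin at 0, with a line at the mean and bars of 1 SD (n = 5; the lower bar of Igfbp2 in control mice is cut off at 0). Igf1 in control mice (114 to 184 TPM) lies above every mouse that received RU486, and Igfbp5 in control mice (157 to 194 TPM) lies below all of them.

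The tissue labels were checked against marker genes, and libraries that stood apart were noted first. Stromal, epithelial, smooth muscle and endothelial markers were detected in every library, and mice of a group correlated at 0.961 to 0.992 across genes. Summed adipose markers reached 584 TPM in control replicate 2 and 134 TPM in IF replicate 5, against 2.78 to 48.2 TPM in the remaining 18 libraries. Control replicate 2 also had the lowest summed stromal (5117 TPM) and endothelial (366 TPM) markers of all libraries. Results are given with and without it where it changes a call. Each library is 1 mouse, so errors below are between mice. In bulk tissue, fewer cells of a type and less RNA per cell cannot be told apart.

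IF versus control compares the uterus after RU486 with that of untreated pregnancy. The 2 ligands moved in opposite directions, as Igf1 fell and Igf2 rose, and Igf2r and 4 of 6 binding proteins (Igfbp4, Igfbp5, Igfbp6 and Igfbp7) rose. Igf1r, Igfbp2 and Igfbp3 did not pass the test, which was limma on log2(TPM + 0.1) with Benjamini-Hochberg adjustment over all genes tested and a threshold of 0.05. Thus 7 of 10 members passed, where 21.9% of all genes tested passed, 13.4% upward and 8.53% downward. The 6 members that rose and 1 that fell kept this split under quantile normalization, which changed the split over all genes from 2509 higher and 1595 lower to 2161 higher and 2093 lower. Mice of the 2 groups did not overlap for 6 members, against 12.8% of all genes. The median member was 0.42 higher on the log2 scale, beside 0.0223 over all genes tested. A fold change of at least 2 with an unadjusted p under 0.05, the rule used in the study, was met by Igf1 and Igfbp5 and by 4.03% of all genes.

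Igf1 measured 167, 114, 162, 184 and 118 TPM in control replicates 1 to 5, and 41.5, 35.9, 31.0, 64.3 and 32.4 TPM in the IF mice. Every IF mouse was below every control mouse, including the highest IF mouse, replicate 4. Igf1 was lower 3.70-fold (log2 fold change -1.89, SE 0.16, adjusted p = 2.33e-07, limma). In rank among the genes tested, counted from the highest mean TPM, it dropped from 908 to 3974.

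Igf2, in contrast, was a low transcript that rose modestly. It measured 10.5, 6.84, 10.1, 10.9 and 10.5 TPM in control mice and 13.9, 11.1, 13.1, 13.5 and 13.4 TPM in IF mice. The groups did not overlap, but the lowest IF mouse was just above the highest control mouse. The log2 fold change was 0.42 (SE 0.12, adjusted p = 0.0151, limma), and 0.30 (adjusted p = 0.0233) without control replicate 2, the lowest mouse. Fitting only these 2 groups ended the call (adjusted p = 0.0625). The ratio of Igf1 to Igf2 TPM was 15.4 ± 2.34 (SD, n = 5) in control and 3.15 ± 0.975 in IF mice, so the 2 transcripts remained in the same order but much nearer to each other.

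Of the receptors, Igf2r measured 39.3, 36.4, 37.0, 36.1 and 34.8 TPM in control mice and 49.9, 51.4, 60.6, 43.2 and 42.5 TPM in IF mice. The groups were separate, with a tight control group and a wider IF group. Igf2r rose by a log2 fold change of 0.42 (SE 0.10, adjusted p = 0.00426, limma).

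Igf1r, the signaling receptor, measured 11.2, 17.8, 10.03, 9.99 and 11.4 TPM in control and 14.9, 14.8, 23.7, 12.5 and 14.1 TPM in IF mice. All IF mice were above 4 of the control mice, and control replicate 2 was above 4 of the IF mice. The log2 fold change of 0.40 (SE 0.18) did not pass (adjusted p = 0.111, limma). Without control replicate 2 it was 0.55 and passed (adjusted p = 0.0157), as it did when IF replicate 3 was left out as well (0.40, adjusted p = 0.0303), an alternative chosen after the data were seen. The ratio of Igf2r to Igf1r TPM was 3.19 ± 0.682 in control and 3.17 ± 0.386 in IF mice (SD, n = 5).

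Igfbp5, a binding protein that attaches to extracellular matrix, had the largest rise of the members. It measured 176, 157, 188, 194 and 163 TPM in control mice and 613, 486, 380, 493 and 496 TPM in IF mice. The lowest IF mouse was well above the highest control mouse. The rise was 2.79-fold (log2 fold change 1.48, SE 0.10, adjusted p = 1.16e-08, limma).

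The 2 most abundant binding proteins also rose. Igfbp7, a low-affinity IGF binder of vessels and stroma also called angiomodulin, measured 1318, 861, 1253, 1189 and 1034 TPM in control mice and 1539, 1816, 1432, 1735 and 1714 TPM in IF mice, without overlap (log2 fold change 0.55, SE 0.10, adjusted p = 0.000367, limma). Igfbp4, an inhibitory binding protein cleaved by the protease that Pappa encodes, measured 960, 437, 875, 876 and 994 TPM in control mice and 1415, 1549, 895, 1462 and 1596 TPM in IF mice. Here the groups overlapped, since IF replicate 3 was below 2 control mice and control replicate 2 was far below the rest. Igfbp4 rose by a log2 fold change of 0.77 (SE 0.19, adjusted p = 0.00596, limma). It kept the call without control replicate 2 (0.55, adjusted p = 0.0042) and lost it when only these 2 groups were fitted (adjusted p = 0.0569).

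Igfbp6, which prefers IGF2 over IGF1, measured 412, 475, 383, 361 and 348 TPM in control mice and 596, 487, 493, 560 and 481 TPM in IF mice. The highest control mouse was replicate 2, directly below the lowest IF mouse. The log2 fold change was 0.41 (SE 0.08, adjusted p = 0.00158, limma).

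Igfbp3, the main IGF carrier of serum, and Igfbp2 varied most among mice of a group. Igfbp3 measured 169, 587, 170, 158 and 473 TPM in control mice, which thus fell into a low trio and a high pair, and 297, 435, 658, 282 and 567 TPM in IF mice. The log2 fold change was 0.69 (SE 0.34, adjusted p = 0.168, limma), and without control replicate 2 it was 0.98 and passed (adjusted p = 0.0264). Igfbp2 measured 1.40, 0.384, 1.05, 1.17 and 7.31 TPM in control mice and 0.534, 1.03, 0.784, 0.864 and 2.28 TPM in IF mice. One mouse of each group, replicate 5, was the highest, and the log2 difference was -0.49 (SE 0.51, adjusted p = 0.55, limma). Its sign turned without control replicate 5 (0.09, adjusted p = 0.905).

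Markers of some cell types moved with these transcripts. All 6 endothelial markers rose in IF mice, where 21.9% of all genes passed in either direction, and their sum was 366 to 492 TPM in control and 545 to 590 TPM in IF mice. Of 7 stromal markers 2 rose and 1 fell, with sums of 5117 to 7960 and 8201 to 9550 TPM, and of 7 epithelial markers 4 rose and 1 fell, with sums of 511 to 930 and 761 to 981 TPM. Of 6 myeloid markers 3 rose, with sums of 674 to 874 and 672 to 915 TPM, and 1 of 7 smooth muscle and 1 of 6 ovary and oviduct markers fell, while no lymphoid (5 tested), red cell (5), adipose (1) or liver (2) marker passed. The part of these markers in the changes of the IGF system was not tested.

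**Figure D2:**
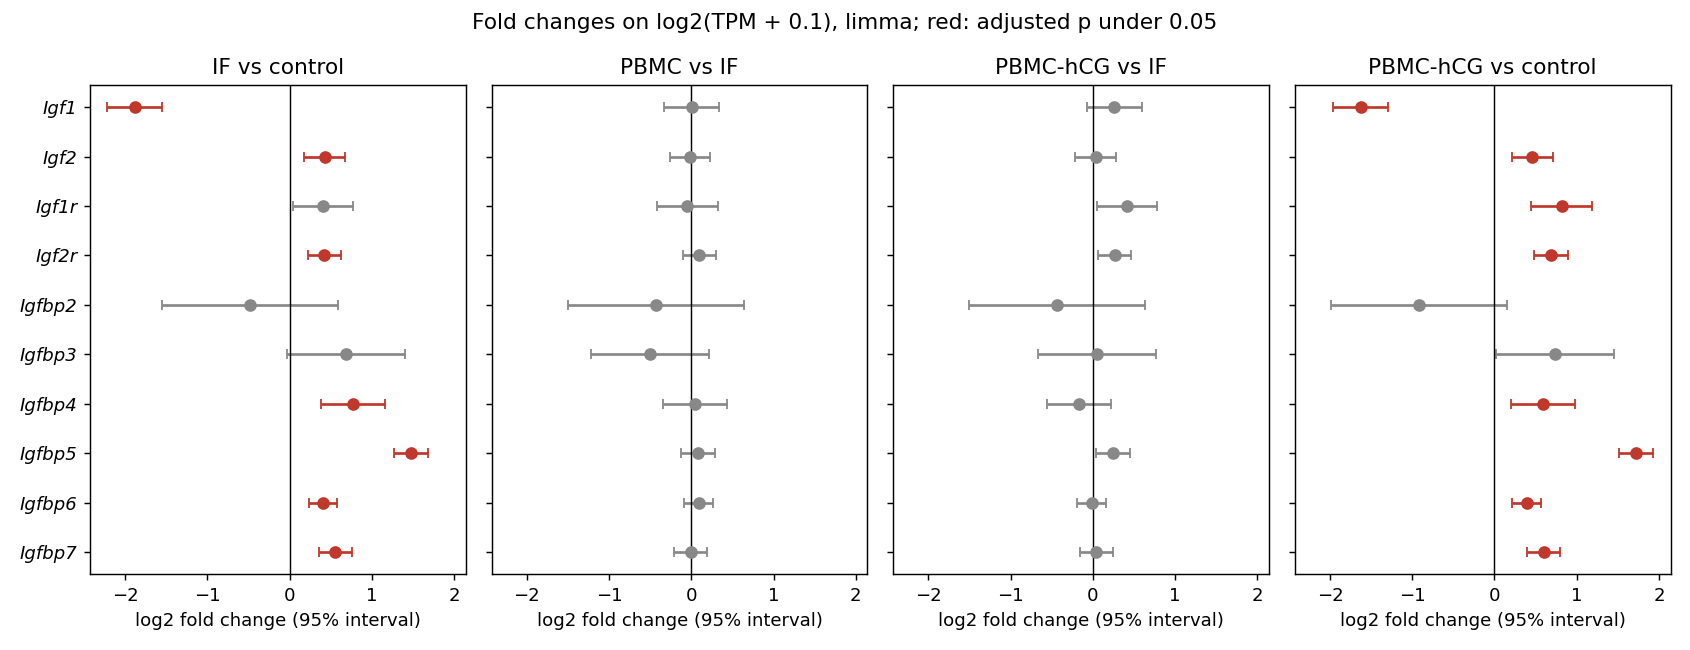
Log2 fold change of each member in 4 comparisons, from limma on log2(TPM + 0.1), with 95% intervals and red where the adjusted p is under 0.05. Against control, Igf1 lies to the left (-1.89 in IF, -1.63 in PBMC-hCG) and Igfbp5 farthest to the right (1.48 and 1.73), while no member is red in PBMC or PBMC-hCG against IF.

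The binding proteins together grew in TPM. Summed over Igfbp2 to Igfbp7, they took 2844 ± 212 TPM in control (SD, n = 5), 4496 ± 392 in IF, 4409 ± 44.0 in PBMC and 4446 ± 231 in PBMC-hCG mice, or 0.284% of all TPM in control and 0.450% in IF. The highest control mouse, at 3036 TPM, was below the lowest IF mouse, at 3858 TPM. Igfbp5 took 6.20% of the sum in control mice, 10.98% in IF, 11.8% in PBMC and 13.1% in PBMC-hCG mice, whereas Igfbp7 took 39.7% in control and 36.6% in IF mice. The sum of binding protein TPM over that of both ligands was 18.5 ± 3.66 in control mice, against 86.7 ± 18.98 in IF, 84.0 ± 5.54 in PBMC and 73.2 ± 2.19 in PBMC-hCG mice. These are ratios of transcripts, and protein was not measured.

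**Figure D3:**
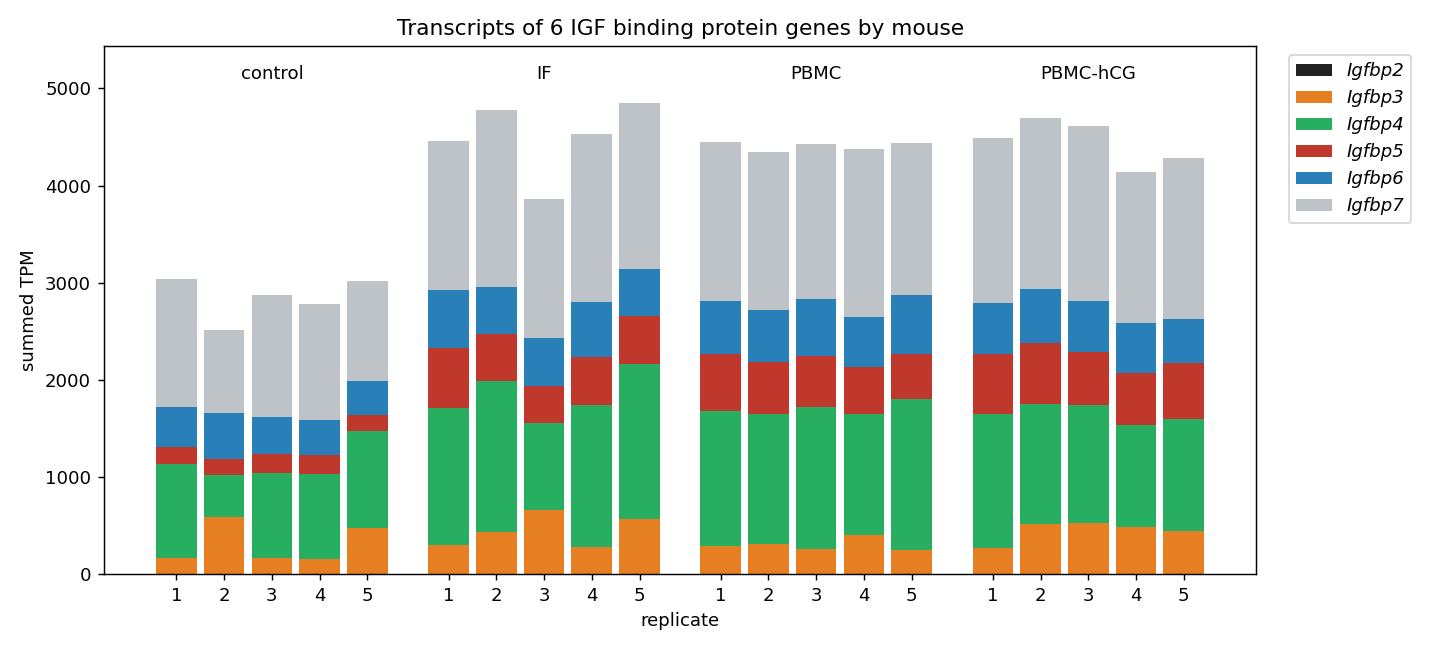
Stacked TPM of Igfbp2 to Igfbp7 in each of the 20 mice, by group and replicate. Control sums run from 2517 to 3036 TPM and IF sums from 3858 to 4855 TPM, and the Igfbp5 layer is thinnest in control mice. Igfbp2 is too low to be seen.

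PBMC versus IF compares RU486 after an intrauterine injection of cells cultured without hCG with RU486 alone. The injection itself and the cells cannot be told apart in it. No member passed, and no gene of the 18706 did (0.0%) by limma, although 1271 genes (6.79%) had an unadjusted p under 0.05, none of them a member. Igf1 in PBMC mice measured 41.2, 40.1, 38.5, 41.7 and 37.4 TPM, all within the range of the IF mice and with a smaller spread (SD 1.81, against 13.6). The log2 difference of Igf1 was 0.01, with a 95% interval of -0.33 to 0.34. Igfbp5 measured 581, 541, 532, 482 and 460 TPM, again within the IF range, with a difference of 0.08 and an interval of -0.12 to 0.29. The widest intervals were those of Igfbp2 (-1.496 to 0.64) and Igfbp3 (-1.22 to 0.21), so sizeable differences of these 2 remain possible. The median over members was 0.00, beside 0.0199 over all genes.

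PBMC-hCG versus IF makes the same comparison for cells cultured with hCG, again together with the injection. No member passed, where 13.6% of all genes tested passed. The count of 2544 genes depended strongly on which mice were included. It became 5061 when IF replicate 3 was left out, and 4166 when PBMC-hCG replicate 1 was. Leaving out any other mouse of these groups gave 0 to 34, apart from IF replicate 1 (2334 genes). In those runs of 0 to 34 calls, 4409 to 5691 genes still had an unadjusted p under 0.05, against 6547 with all mice. Of the 2544 genes, 1423 were higher and 1121 lower. After centering each library on its median these were 1054 and 1620, a similar total. The 3 members with an unadjusted p under 0.05, a level reached by 35.0% of all genes, were the 2 receptors and Igfbp5, each higher in PBMC-hCG mice. After centering on the library median, of the members only Igf2r had an unadjusted p under 0.05. The median over members was 0.05, beside 0.0494 over all genes. Of 5 red cell markers 2 were lower than in IF mice, with sums of 342 to 878 against 640 to 1802 TPM, and 2 of 7 stromal, 1 of 7 epithelial and 1 of 6 endothelial markers were higher. Their part in the values of the members was not tested.

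Igf1r in PBMC-hCG mice measured 17.7, 21.1, 21.8, 23.5 and 20.5 TPM. These were all above 4 of the IF mice and below the fifth, IF replicate 3. The log2 difference was 0.41 (95% interval 0.04 to 0.78, adjusted p = 0.106, limma), and it passed without that mouse (0.56, adjusted p = 0.0195). Igf2r measured 55.1, 60.7, 61.6, 59.1 and 58.9 TPM, again above 4 of the IF mice (difference 0.27, interval 0.06 to 0.47, adjusted p = 0.0675), and also passed without IF replicate 3 (0.34, adjusted p = 0.0154).

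Igfbp5 measured 621, 624, 547, 539 and 572 TPM in PBMC-hCG mice, which put 4 of the IF mice below all of them and IF replicate 1 within their range. The log2 difference was 0.25 (95% interval 0.04 to 0.45, adjusted p = 0.0875, limma), and it passed without IF replicate 1 (0.33, adjusted p = 0.0330). The direction was that of RU486 against control and not toward the control level. Igf1 measured 48.5, 49.9, 50.3, 43.6 and 44.9 TPM, above 4 of the IF mice and below the fifth, replicate 4 (difference 0.26, interval -0.07 to 0.59, adjusted p = 0.251). The lowest control mouse, at 114 TPM, had more than the highest PBMC-hCG mouse, at 50.3 TPM.

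PBMC-hCG versus PBMC compares the cells with and without hCG in culture. No member passed in limma, whereas 2 genes (0.0107%) did, and an unadjusted p under 0.05 was reached by 1 member and 3024 genes (16.2%). Igf1 was the only member without overlap between the groups, a property of 3.46% of all genes, at 43.6 to 50.3 TPM against 37.4 to 41.7 TPM. The difference was small (0.25 on the log2 scale, interval -0.08 to 0.59, adjusted p = 0.4, limma), and a two-sided exact permutation test of Igf1 alone gave p = 0.00794, the smallest that 5 against 5 mice allow and 1 of 60 such tests made without adjustment. The member with an unadjusted limma p under 0.05 was Igf1r (difference 0.46, interval 0.09 to 0.83, adjusted p = 0.283). Igfbp3 measured 273, 516, 522, 489 and 446 TPM in PBMC-hCG mice and 289, 306, 258, 406 and 254 TPM in PBMC mice. Only PBMC-hCG replicate 1 was within the PBMC range, and the difference of 0.55 had an interval of -0.16 to 1.27.

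Both PBMC groups were also set against control. These comparisons use the same control mice as IF versus control, so their values are given side by side and not as repeats. In PBMC mice 7 members passed, where 19.5% of all genes did (12.8% upward and 6.70% downward), with Igf1 lower and Igf2, Igf2r, Igfbp4, Igfbp5, Igfbp6 and Igfbp7 higher. The median over members was 0.45, beside 0.0482 over all genes. In PBMC-hCG mice 8 passed, where 31.8% of all genes did (20.2% upward and 11.6% downward), which adds Igf1r to these 7, and the median was 0.60 beside 0.0758. Over all genes the PBMC-hCG calls split into 3772 higher and 2169 lower, or 2940 and 2809 after centering each library on its median, and the PBMC calls into 2400 higher and 1253 lower, or 1991 and 1727 after quantile normalization. The splits of the members stayed the same.

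Igf1 remained low in both, with log2 fold changes of -1.88 (SE 0.16, adjusted p = 2.32e-07, limma) in PBMC and -1.63 (adjusted p = 1.31e-06) in PBMC-hCG mice. Igfbp5 was 2.95-fold higher in PBMC (adjusted p = 6.38e-09) and 3.31-fold higher in PBMC-hCG mice (adjusted p = 1.52e-09). Among the members no other had a fold change of 2 or more with an unadjusted p under 0.05 in either comparison, a rule met by 3.34% and 4.74% of all genes.

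By group mean, both receptors were highest in PBMC-hCG mice, although neither passed against IF or PBMC mice. Igf1r averaged 12.1, 16.02, 15.3 and 20.9 TPM in control, IF, PBMC and PBMC-hCG mice. Of the control mice, replicate 2 alone exceeded the lowest PBMC-hCG mouse, and the log2 fold change against control was 0.82 (SE 0.18, adjusted p = 0.00191, limma). In PBMC mice it was 0.35 (adjusted p = 0.177), and passed without control replicate 2 (0.50, adjusted p = 0.0283). Igf2r averaged 36.7, 49.5, 53.0 and 59.1 TPM in the same order. Its log2 fold changes against control were 0.52 in PBMC (adjusted p = 0.000898, limma) and 0.69 in PBMC-hCG mice (adjusted p = 5.19e-05).

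Igf2 measured 15.0, 14.0, 11.7, 12.7 and 11.1 TPM in PBMC and 13.6, 11.9, 14.7, 14.2 and 12.2 TPM in PBMC-hCG mice, all above every control mouse. The log2 fold changes were 0.41 (adjusted p = 0.0202, limma) and 0.46 (adjusted p = 0.00675). The first was lost without PBMC replicate 1 (adjusted p = 0.0581) or PBMC replicate 2 (adjusted p = 0.0529).

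The other binding proteins also stood above control in both groups, apart from Igfbp2 and Igfbp3. Igfbp4 measured 1394, 1340, 1461, 1240 and 1551 TPM in PBMC mice (log2 fold change 0.81, adjusted p = 0.00455, limma) and 1374, 1240, 1219, 1046 and 1152 TPM in PBMC-hCG mice (0.59, adjusted p = 0.0206, and 0.38 with adjusted p = 0.0279 without control replicate 2). Igfbp6 measured 550, 528, 580, 516 and 604 TPM in PBMC mice (0.50, adjusted p = 0.000319) and 526, 559, 523, 516 and 460.0 TPM in PBMC-hCG mice (0.39, adjusted p = 0.00163). The last mouse was below the highest control mouse, the sole overlap for Igfbp6. Igfbp7 averaged 1634 TPM in PBMC and 1693 TPM in PBMC-hCG mice, with log2 fold changes of 0.55 (adjusted p = 0.000473) and 0.60 (adjusted p = 0.000148).

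Igfbp2 was at 0.724 ± 0.198 TPM in PBMC and 0.747 ± 0.335 TPM in PBMC-hCG mice (SD, n = 5), with log2 differences from control of -0.91 (adjusted p = 0.234, limma) and -0.92 (adjusted p = 0.18). Without control replicate 2, the lowest control mouse, these were -1.32 (adjusted p = 0.0487) and -1.33 (adjusted p = 0.0320), and without control replicate 5, the highest, -0.34 (adjusted p = 0.607) and -0.35 (adjusted p = 0.537). Igfbp3 differed from control by 0.18 in PBMC (adjusted p = 0.77) and 0.73 in PBMC-hCG mice (adjusted p = 0.111), the latter 1.02 (adjusted p = 0.0143) without control replicate 2, the highest control mouse. Among markers, all 6 endothelial genes were higher than control in both groups, with sums of 550 to 631 and 611 to 685 TPM, and 5 of 7 smooth muscle genes were lower in PBMC-hCG mice (5026 to 6339 TPM, against 6190 to 11453 in control). Of 7 epithelial markers 4 were higher in each group and 1 lower in PBMC-hCG mice, and of 7 stromal markers 3 were higher and 1 lower in each. Of 6 myeloid markers 1 was higher in PBMC and 3 in PBMC-hCG mice, 1 of 6 ovary and oviduct markers was lower in each, and in PBMC-hCG mice 1 of 5 lymphoid markers was higher and 1 of 5 red cell markers lower. Their part in the members' values was not tested.

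Further genes of the pathway were taken from a list of 43, of which 38 were tested. In IF versus control 19 rose and 2 fell, where 13.4% of all genes rose and 8.53% fell, and no test compared the list with other genes. The proteases that free IGF from its binding proteins, with their inhibitors, had 3 of 6 members higher. Pappa, which cleaves IGFBP4 and IGFBP5, rose from 1.14 ± 0.335 to 3.14 ± 1.36 TPM (SD, n = 5, log2 fold change 1.35, adjusted p = 0.000548, limma), without overlap. Stc1, a stanniocalcin that inhibits this protease, was at 3.01 ± 0.764 and 6.89 ± 4.27 TPM (1.01, adjusted p = 0.0451), a call lost without any 1 of 6 mice (control replicates 1, 3 and 4, IF replicates 2, 4 and 5, adjusted p up to 0.135). It was also lost without a filter on low values (adjusted p = 0.0739), after centering on the library median (0.0567), after quantile normalization (0.0661) and with only the 2 groups fitted (0.0811). The third was Htra1, a serine protease that cleaves IGFBP5, at 143 ± 21.8 against 96.5 ± 1.65 TPM (0.56, adjusted p = 0.000277).

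Both receptors of the insulin receptor family on the list rose, including the low Insrr (0.174 to 0.420 TPM, log2 fold change 0.95, adjusted p = 0.00247, limma). Its groups overlapped, and the lowest control mouse, at 0.0954 TPM, was near the 0.1 added before the log. The log2 fold change of Insrr ran from 0.27 to 1.30 over the other settings in which it was tested, and the call was kept. Downstream, of 7 receptor adaptors 3 rose and 2 fell. Irs2, which couples the receptors to PI3K, went from 8.41 ± 3.99 to 15.4 ± 6.06 TPM (0.89, adjusted p = 0.0184), a call lost without control replicate 3 or IF replicate 3 (adjusted p up to 0.0529). Grb10, an adaptor that restrains the receptors, fell from 110 ± 18.5 to 74.4 ± 10.6 TPM (-0.56, adjusted p = 0.00146).

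Of 17 genes for PI3K, AKT and mTOR components 7 rose and none fell. Foxo1, a transcription factor that AKT excludes from the nucleus, rose from 39.9 ± 2.27 to 74.5 ± 6.01 TPM (log2 fold change 0.90, adjusted p = 4.15e-07, limma). All 3 genes of the growth hormone axis, which drives hepatic Igf1, rose, with Stat5a at 17.7 ± 1.32 in control and 31.8 ± 3.30 TPM in IF mice (0.84, adjusted p = 2.6e-05). The control and IF mice did not overlap for Foxo1 or Stat5a.

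In PBMC versus IF none of the 38 passed in limma, and 2 had an unadjusted p under 0.05, where 6.79% of all genes did. In PBMC-hCG versus IF 5 passed, a share near the 13.6% of all genes and so no result about the pathway, namely Grb14 (7.76 to 12.1 TPM, 0.66, adjusted p = 0.0335, limma) and Pik3r2 (0.34, adjusted p = 0.0454) upward, and Stat5a (31.8 to 21.8 TPM, -0.56, adjusted p = 0.0258), Akt1 (-0.33, adjusted p = 0.0399) and Foxo1 (-0.28, adjusted p = 0.0368) downward. Grb14 encodes another adaptor that restrains the receptors, and Pik3r2 a regulatory subunit of PI3K. Pik3r2, Akt1 and Foxo1 were named here after their values were seen. All 5 calls were lost when any 1 of 7 mice was left out (IF replicates 2, 4 and 5, PBMC-hCG replicates 2 to 5, with adjusted p up to 0.148 for Pik3r2). In PBMC-hCG versus PBMC none of the 38 passed, and 4 had an unadjusted p under 0.05, where 16.2% of all genes did. Against control, 16 rose and 1 fell in PBMC mice, beside 12.8% and 6.70% of all genes, and 20 rose and 1 fell in PBMC-hCG mice, beside 20.2% and 11.6%.

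**Figure D4:**
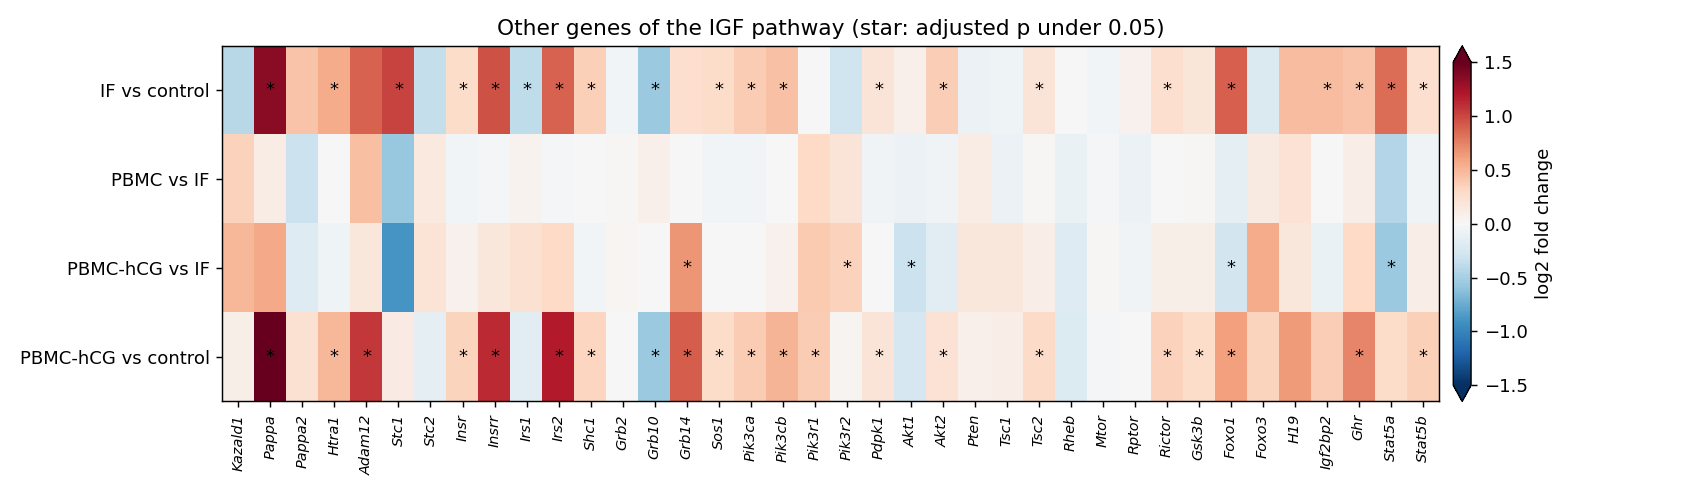
Log2 fold change of the 38 pathway genes tested, in 4 comparisons, from blue (lower) to red (higher) on a scale cut at -1.5 and 1.5, with a star where the adjusted p is under 0.05. Stars lie in the rows against control and on 5 genes of PBMC-hCG versus IF, and the row of PBMC versus IF has none.

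Members also varied together among mice of the same group. After subtraction of group means over the 20 mice, Igf1r and Igfbp4 had the most negative correlation of any pair (r = -0.85), followed by Igf1 and Igfbp3 (r = -0.74). Igfbp4 with Igfbp7 (r = 0.74), and Igf1r with Igf2r (r = 0.71) and Igfbp3 (r = 0.71), were the most positive. These are descriptions over log2 values that share a library total, and control replicate 2 and IF replicate 3 lie at the end of each negative relation. Both mice were also the lowest of their groups for Igfbp4 and Igfbp7 and the highest for Igf1r and Igfbp3. IF replicate 3 was the highest IF mouse for Igf2r as well.

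**Figure D5:**
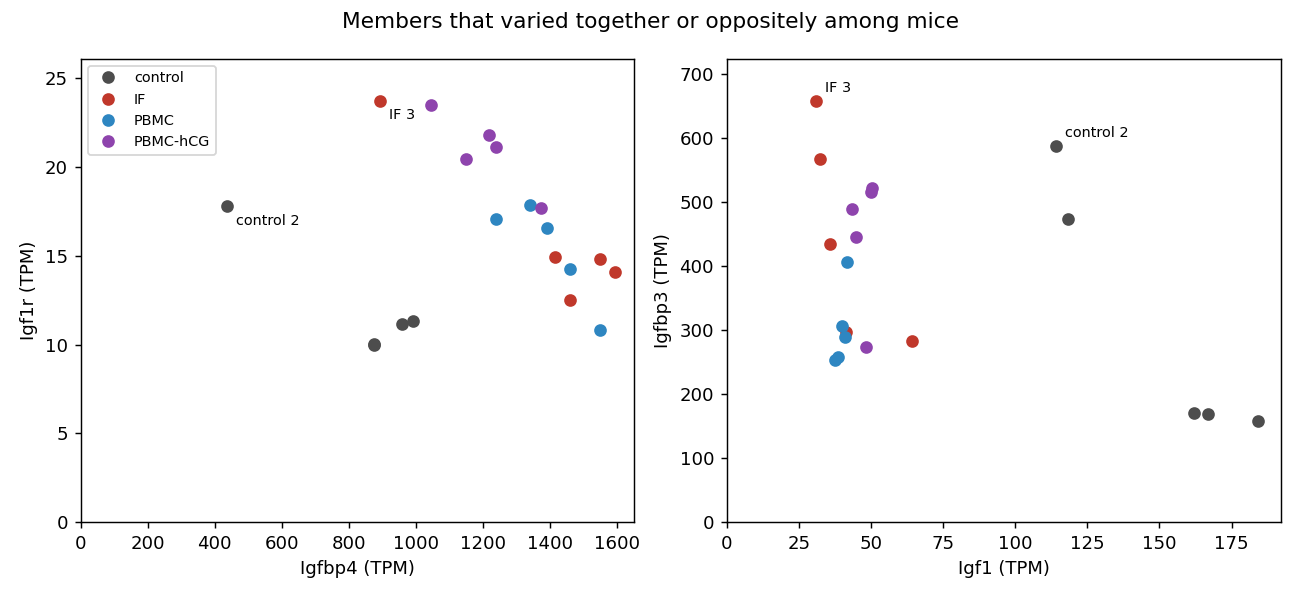
TPM of Igf1r against Igfbp4 (left) and of Igfbp3 against Igf1 (right) in each of the 20 mice, colored by group. Control replicate 2 (437 TPM of Igfbp4, 17.8 TPM of Igf1r) and IF replicate 3 (895 and 23.7 TPM) are labelled and lie at the low Igfbp4 and high Igf1r end of their groups.

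Over all 20 mice, the genes most like each member were found among 15770 tested genes with a mean of at least 1 TPM. Igf1 was followed most closely by Vgll3 (r = 0.979), Sptssa (0.968) and Spon1 (0.964), and Igfbp5 by Tmtc2 (0.976), Steap3 (0.970) and Tmem178b (0.970). Both sets rest partly on the difference between groups, as within groups the r of Vgll3 with Igf1 was 0.759 and that of Steap3 with Igfbp5 was 0.326. Igf1r went with Snx33 (0.978), Pnpla7 (0.966) and Best1 (0.962), and Igfbp4 with Lef1 (0.973), Lgmn (0.962) and Gm11476 (0.962). Within groups r was 0.958 for Igf1r with Snx33 and 0.978 for Igfbp4 with Lef1. Control replicate 2 and IF replicate 3 stood apart from their groups for both of these members. Igf2r went with Robo4 (0.968), Dapk2 (0.967) and C1s2 (0.966), and Igfbp7 with Oaz2 (0.963), Nrp1 (0.953) and Tcaf1 (0.949). The remaining members had lower values. Igf2 went with Fn1 (0.887), Wnk1 (0.883) and Cnot1 (0.881), Igfbp2 with Paqr3 (0.902), Adora2b (0.881) and Apmap (0.857), Igfbp3 with Pla2g7 (0.907), Gabrp (0.905) and Ngef (0.892), and Igfbp6 with Trim8 (0.896), Hoxd8 (0.895) and Slc6a13 (0.890). With the first gene named, r within groups was 0.865 for Igf2r, 0.834 for Igfbp7 and 0.730 for Igf2. It was 0.890 for Igfbp2, 0.888 for Igfbp3 and 0.613 for Igfbp6.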

How the data were processed

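Poly(A) RNA of 20 uterine horns was sequenced from stranded libraries. The values are TPM deposited by the authors, made with Trimmomatic, HISAT2 (mm10) and StringTie (versions not given in the sources used here). Counts were not used here, so sequencing depth is unknown. The members and lists were chosen with earlier results of these data known. Groups were taken from the sample titles, and every column matched 1 sample.

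Genes above 0 TPM in all 20 libraries (18706 of 45777) were tested as log2(TPM + 0.1) with limma 3.58.1 (R 4.3.3), with a variance trend, all 4 groups in 1 fit, 6 comparisons, and Benjamini-Hochberg adjustment within each comparison at 0.05. The study's edgeR test on counts could not be applied to TPM. A fold change is thus on the log2(TPM + 0.1) scale, which understates changes of low genes. The fit was tested on simulated data. Exact permutation tests (scipy 1.17.1, two-sided, 252 arrangements) were run per member. Marker and pathway lists were compared by counts. One gene of the pathway list is not reported here.

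All members were named. Pathway genes were named at an adjusted p under 0.05 and an absolute log2 fold change of at least 0.5 in IF versus control, PBMC versus IF or PBMC-hCG versus IF, at most 8 per comparison, with Igfbp1 in any case, and 3 genes per member by Pearson correlation. Alternatives were other pseudocounts, filters, scalings and limma settings, a replicate block, and leaving out each mouse. Promoter windows came from RefSeq (GRCm38.p6, matched by symbol for 10 of 10 members, 14 windows).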

Additional observations from a re-analysis of the deposited data

Results flagged for a closer look

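For each member in each group of 5 mice, the gap between the most extreme mouse and its nearest neighbor was compared with the range of the group (Dixon's test at its 95% critical value). Of 40 such groups 8 had a mouse that stood apart, where chance flags about 1 in 20 of independent groups. The members share the same libraries, so these groups are not independent and the count does not measure an excess over chance. All 8 were in control or IF mice.

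Control replicate 2 stood apart in 3 members, as the lowest mouse for Igf2 (6.84 TPM) and Igfbp4 (437 TPM) and the highest for Igf1r (17.8 TPM). It is also the library with the highest adipose markers, 584 TPM. IF replicate 3 stood apart in 2 members, as the highest for Igf1r (23.7 TPM) and the lowest for Igfbp4 (895 TPM). Replicate 5 was highest for Igfbp2 in control mice (7.31 TPM) and in IF mice (2.28 TPM). IF replicate 2 was the lowest of its group for Igf2 (11.1 TPM). The part of tissue make-up in these values was not tested.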

How the results depend on the processing

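Igf1 and Igfbp5 kept their direction and call against control, in IF, PBMC and PBMC-hCG mice, under every alternative run, and no member reversed a called direction. In IF versus control Igf1 ranged from -2.06 to -1.80 and Igfbp5 from 1.40 to 1.57 on the log2 scale when 1 mouse was left out. Members called ranged from 7 to 9 in IF versus control, 6 to 9 in PBMC versus control, 8 to 10 in PBMC-hCG versus control and 0 to 2 in PBMC-hCG versus IF when 1 mouse was left out, and stayed at 0 in PBMC versus IF and PBMC-hCG versus PBMC. Fitting only the 2 groups compared also ended the call of Igf2 in PBMC versus control (adjusted p = 0.0849). Array weights, which down-weight variable libraries, gave 1 member in PBMC-hCG versus PBMC (Igf1r) and 3 in PBMC-hCG versus IF (Igf1r, Igf2r and Igfbp4), and quantile normalization gave 1 there (Igfbp5, adjusted p = 0.0312). Array weights also gave 9 members in each comparison with control, adding Igf1r and Igfbp3 in IF and PBMC mice and Igfbp3 in PBMC-hCG mice. The cause of these changes was not tested.

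Over all genes, array weights gave 6248 calls in IF versus control, 34 in PBMC versus IF, 8078 in PBMC-hCG versus IF, 1461 in PBMC-hCG versus PBMC, 6814 in PBMC versus control and 9554 in PBMC-hCG versus control, against 4104, 0, 2544, 2, 3653 and 5941. Fitting only 2 groups gave 2473 in IF versus control. Without a filter on low values PBMC-hCG versus IF had 812 and PBMC versus IF 1, and a pseudocount of 1 or a mean of at least 1 TPM each left 1 in PBMC-hCG versus PBMC. Leaving out 1 mouse gave 3323 to 5012, 0 to 2, 0 to 5061, 2 to 7, 2959 to 4628 and 4756 to 7513 in the same order. An unadjusted exact permutation test passed 0.05 for Igf1r and Igf2r in PBMC-hCG versus IF, and for Igf1, Igf1r, Igfbp3 and Igfbp4 in PBMC-hCG versus PBMC, which the adjusted limma test did not.

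Replicate numbers recur in every group, but the labels do not state that they pair mice. Same-numbered mice of different groups correlated at -0.247 to 0.457 in their deviations from group means, 8 of 30 pairs over 0.1, and 2 of 20 mice correlated best with their own number, so the numbers were not taken as pairs. With the replicate block 4153 genes and 7 members were called in IF versus control, and 3215 genes and 0 members in PBMC-hCG versus IF, and no call of a member changed. The depth of the libraries is unknown, which leaves the precision of low transcripts such as Igfbp2 to the spread between mice.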
